A study of Mus musculus with 8 samples.

Results

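The 9 genes described here encode transcription factors that set up and maintain the hepatocyte, the main cell of the liver. They are Hnf4a, Foxa1, Foxa2, Foxa3, Cebpa, Cebpb, Onecut1, Prox1 and Nr5a2. They were chosen by name, and all 9 were found among the 21883 protein-coding genes of the gene table. For each, the ends of paired-end tags (PETs) from RNA polymerase II (Pol II) ChIA-PET of mouse liver were counted over the gene and 10 kb on either side, a stretch called its window. Of 2753554 PETs, 2927 (0.106%) had an end in at least 1 of these windows.

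Liver identity rests on a network of factors that bind one another's genes as well as those of liver products. The FOXA proteins are pioneer factors, which open packed chromatin of endoderm before liver genes are switched on. HNF4A, the C/EBP proteins, ONECUT1, PROX1 and NR5A2 then act together at the enhancers and promoters of genes for plasma proteins, lipid transport, bile acids and glucose production. In ChIA-PET, crosslinked chromatin is captured with an antibody to Pol II, neighbouring DNA ends are ligated to each other by way of a linker, and a tag is read from either side of the junction. How densely PET ends cover a gene therefore reports captured Pol II chromatin, and the partner of each end reports what it was joined to.

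The chromatin came from livers of wild-type C57BL/6 mice aged 3 to 6 months, kept on a light-dark cycle with free access to food. There were 4 libraries of livers taken at ZT06, in the light phase, and 4 at ZT18, in the dark phase, per the labels, where ZT counts hours after lights on. Each was made with the antibody 8WG16 from chromatin of 3 to 7 livers combined. Experiments 1 and 3 were crosslinked with 1.5 mM EGS and 1% formaldehyde, and experiment 2 with 1% formaldehyde alone. The deposited table names the experiment of each PET and its linker sequence, ATGT or TAAG, but no library and no time point, so day and night were not compared. Each experiment is 1 pool with no replicate, and every interval given is a 95% interval that covers counting error only. Whole liver was used, so fewer cells with Pol II on a gene and less Pol II per cell cannot be told apart.

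Experiments 1, 2 and 3 held 474478, 1438866 and 840210 PETs, which put 0.349, 1.06 and 0.616 nuclear ends on each kb of genome. PETs touching the 9 genes numbered 1044, 879 and 1004, so the smallest experiment held the most. Densities below are relative, that is, ends per kb of window divided by the nuclear mean of the same experiment. A gene was called when this density was at least 2 and its lower limit was above 1. By this rule 24.4% of all protein-coding genes were called in experiment 1, 2.76% in experiment 2, 20.1% in experiment 3 and 2.66% in all 3. Of 8 hepatocyte markers 6 were called in all 3 experiments, and of the 4 markers each for Kupffer cells, sinusoidal endothelium, stellate cells, cholangiocytes and leukocytes 0 were. The highest densities among those other cell types were 2.69 and 2.99 for Sox9, a cholangiocyte marker, in experiments 1 and 3.

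Promoters of Hnf4a, Foxa1, Foxa3, Cebpa, Cebpb and Onecut1 are shown first, since much of what follows turns on their positions. Each is the 250 bases before an annotated start, from RefSeq on GRCm38.p6, written 5′ to 3′ on the strand of the gene. Capitals mark an exact match to 1 of 7 short words searched on both strands. Hnf4a is shown at both of its starts because they differed in density. Their promoters are chr2:163506607-163506856 for the first start and chr2:163546905-163547154 for the second, both on the plus strand. Foxa1 (chr12:57546112-57546361, minus strand) and Foxa3 (chr7:19023540-19023789, minus strand) are shown for their matches and their sharp peaks. Cebpa (chr7:35119043-35119292, plus strand) and Cebpb (chr2:167688665-167688914, plus strand) are shown because their starts were the densest of the 9 genes. Onecut1 (chr9:74861671-74861920, plus strand) differed most between experiments.
Hnf4a first start: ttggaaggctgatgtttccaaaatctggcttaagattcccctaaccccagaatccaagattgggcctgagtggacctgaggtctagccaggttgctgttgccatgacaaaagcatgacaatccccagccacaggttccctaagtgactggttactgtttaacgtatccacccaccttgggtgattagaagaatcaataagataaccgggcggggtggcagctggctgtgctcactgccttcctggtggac
Hnf4a second start: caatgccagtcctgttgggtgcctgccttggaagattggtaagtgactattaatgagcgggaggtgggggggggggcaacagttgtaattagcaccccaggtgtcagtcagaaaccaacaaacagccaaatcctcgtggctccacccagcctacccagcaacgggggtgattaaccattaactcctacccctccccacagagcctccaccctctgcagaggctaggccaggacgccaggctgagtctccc
Foxa1: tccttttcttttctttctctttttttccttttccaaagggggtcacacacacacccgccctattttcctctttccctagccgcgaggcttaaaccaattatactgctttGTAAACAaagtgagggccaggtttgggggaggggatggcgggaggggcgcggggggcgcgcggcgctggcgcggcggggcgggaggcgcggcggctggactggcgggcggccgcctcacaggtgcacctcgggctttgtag
Foxa3: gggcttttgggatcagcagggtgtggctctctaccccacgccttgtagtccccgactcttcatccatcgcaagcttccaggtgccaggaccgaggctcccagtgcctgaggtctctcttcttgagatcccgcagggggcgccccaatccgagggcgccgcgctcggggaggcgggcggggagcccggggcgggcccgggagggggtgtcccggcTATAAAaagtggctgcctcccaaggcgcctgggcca
Cebpa: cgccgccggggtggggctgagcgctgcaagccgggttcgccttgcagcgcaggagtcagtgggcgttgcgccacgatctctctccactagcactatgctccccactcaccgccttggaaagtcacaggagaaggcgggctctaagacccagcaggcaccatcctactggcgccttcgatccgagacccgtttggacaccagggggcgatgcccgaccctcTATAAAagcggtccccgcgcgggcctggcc
Cebpb: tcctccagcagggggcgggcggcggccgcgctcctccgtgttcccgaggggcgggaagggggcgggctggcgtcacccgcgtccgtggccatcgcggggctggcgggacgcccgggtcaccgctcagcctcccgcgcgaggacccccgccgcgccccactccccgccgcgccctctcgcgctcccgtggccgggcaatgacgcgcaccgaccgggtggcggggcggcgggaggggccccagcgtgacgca
Onecut1: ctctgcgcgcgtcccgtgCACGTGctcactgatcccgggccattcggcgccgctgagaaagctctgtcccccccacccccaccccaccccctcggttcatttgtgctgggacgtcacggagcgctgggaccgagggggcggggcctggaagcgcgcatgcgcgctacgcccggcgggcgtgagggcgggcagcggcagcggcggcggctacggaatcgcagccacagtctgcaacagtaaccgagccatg

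All 14 annotated starts of the 9 genes had a promoter in the RefSeq table, and the words were counted in windows from 250 bases before to 50 after the start, beside 21262 such promoters. Positions count from the start, with -1 as the base before it. TATAAA, the core of the TATA box, occurred in 6 of the 14 windows and in 12.6% of all promoters. It lay at -30 in Cebpa and at -36 in Foxa3, on the strand of the gene, and at 21 past the start of Cebpb, outside the stretch printed. On the opposite strand it lay at -34 before the first start of Prox1, at -181 before the first start of Nr5a2 and at -208 before the start of Foxa2 nearest its 3′ end. TGTTTAC, a word bound by FOXA proteins, was found in reverse at -141 in Foxa1 and in 3.01% of all promoters. CACGTG, the E-box bound by clock factors among others, was found at -232 in Onecut1 and in 7.84% of all. TTGCNNAA, a C/EBP word, was found in 1 window, before the second start of Nr5a2, and in 10.2% of all. CAAAGTCCA for HNF4A (0.452% of all), CAAGGTCA for NR5A2 (1.34%) and ATCGAT for ONECUT proteins (0.856%) had 0 matches in the 14 windows. The words do not overlap one another in these windows, and a match is only a match of letters. Base composition ranged from 43.2% G and C with 2 CpG before the first start of Nr5a2 to 81.6% with 41 CpG in Cebpb, around medians of 55.6% and 10 over all promoters.

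Every one of the 9 genes was called in experiments 1 and 3, and 5 were called in experiment 2 and in all 3 experiments. These 5 were Foxa1, Foxa2, Foxa3, Cebpa and Cebpb. The calls of Foxa1 in experiment 2 and of Nr5a2 in experiments 1 and 3 were lost, leaving 8, 4 and 8 genes called in experiments 1, 2 and 3, when PETs were counted in place of ends, when densities were taken relative to the median gene window, and with PETs between chromosomes only. Counts of PETs were still divided by the nuclear mean of ends, so in that alternative no density could rise. Over the 9 genes the densities had medians of 10.2, 2.21 and 4.66 in experiments 1, 2 and 3, beside 1.18, 1.16 and 1.37 over all protein-coding genes. The share of all genes called was lower for longer windows. Of windows under 30 kb 5.07% were called in all 3 experiments, as were 4 of the 4 in this set. Of windows of 30 to 60 kb 2.14% were called, as was 1 of 2, and of windows over 60 kb 0.150%, with 0 of 3 for Hnf4a, Prox1 and Nr5a2.

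**Figure D1:**
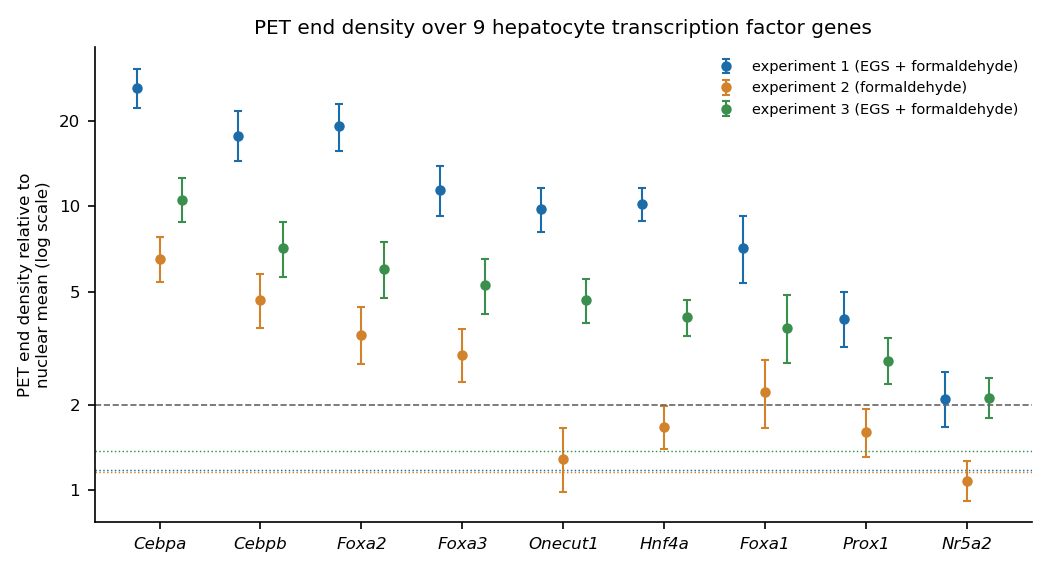
Density of PET ends relative to the nuclear mean (log axis) over each gene and 10 kb on either side, with exact 95% Poisson intervals, for the 3 experiments. The dashed line is the density of 2 needed for a call and the dotted lines are the medians of all protein-coding genes; Cebpa was highest in every experiment (26.1, 6.52 and 10.5) and Nr5a2 was lowest (2.10, 1.08 and 2.12).

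Among the pioneer factors, Foxa2, which is needed for endoderm and for glucose production in the fasted liver, had the highest density. Its gene lies on chromosome 2 from 148042877 to 148046969 on the minus strand. Its window held 160, 90 and 89 ends in experiments 1, 2 and 3. The densities were 19.1 (15.7 to 22.9), 3.53 (2.78 to 4.42) and 6.00 (4.74 to 7.49), and 51, 56 and 80 genes of the genome were denser. Foxa3, the family member most abundant in adult liver, lies on chromosome 7 from 19013283 to 19023539. It held 120, 96 and 98 ends, for densities of 11.4 (9.20 to 13.9), 3.00 (2.40 to 3.71) and 5.26 (4.18 to 6.54). Foxa1, which shares with Foxa2 the opening of liver chromatin in the embryo, lies on chromosome 12 from 57540628 to 57548029. It held 68, 64 and 63 ends, for densities of 7.12 (5.36 to 9.27), 2.21 (1.66 to 2.88) and 3.73 (2.80 to 4.88). In these windows the order Foxa2, Foxa3, Foxa1 was thus the same in each experiment. Intervals of Foxa2 and Foxa3 were apart in experiment 1 and overlapped in experiments 2 and 3, whereas Foxa2 and Foxa1 were apart in experiment 1 and overlapped slightly in the others. Over the gene alone, without the 10 kb on either side, Foxa1 had 19.4, 3.58 and 6.80 and Foxa3 had 16.8, 3.78 and 5.70. Foxa1 was then above Foxa3 in experiments 1 and 3.

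Of the C/EBP genes, Cebpa was denser than all 3 FOXA genes in each experiment, with an interval that overlapped that of Foxa2 in experiment 1 only. Cebpb was above Foxa2 in experiments 2 and 3 and below it in experiment 1, each time with overlapping intervals. Cebpa, which drives metabolic genes and holds back hepatocyte division, lies on chromosome 7 from 35119293 to 35121928 and is a gene of a single exon. Its window held 206, 156 and 147 ends. Its densities of 26.1 (22.2 to 30.5), 6.52 (5.42 to 7.77) and 10.5 (8.79 to 12.6) were exceeded by 20, 10 and 6 genes of the genome. Cebpb, which takes part in the acute-phase response and in regeneration, lies on chromosome 2 from 167688915 to 167690432. It held 133, 106 and 94 ends, for densities of 17.7 (14.4 to 21.6), 4.66 (3.72 to 5.77) and 7.10 (5.65 to 8.80), with 61, 24 and 36 genes denser. With these windows Cebpa was above Cebpb in all 3 experiments. The intervals did not overlap in experiment 1 and overlapped narrowly in experiment 2, and in experiment 3 they met at 8.79 and 8.80. Over the gene alone Cebpa had 99.0, 15.4 and 28.3 and Cebpb had 98.3, 25.5 and 39.6. Cebpb was then the higher in experiments 2 and 3, so their order depended on the window.

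The 2 nuclear receptors had long windows. Hnf4a, whose product is the central receptor of the hepatocyte network, lies on chromosome 2 from 163506811 to 163572907. It held the most ends of any of the 9 genes in experiments 1 and 3, with 305, 152 and 215. Over its 86.1 kb window that gave densities of 10.2 (8.89 to 11.6), 1.67 (1.40 to 1.98) and 4.06 (3.50 to 4.68). Experiment 2 was below the density of 2 needed for a call, with an upper limit just under it. Nr5a2, the receptor that controls bile acid synthesis together with HNF4A, lies on chromosome 1 from 136842562 to 136960448. It held 101, 158 and 180 ends over 138 kb, for densities of 2.10 (1.67 to 2.60), 1.08 (0.918 to 1.27) and 2.12 (1.80 to 2.48). In experiment 2 its interval included the nuclear mean, and 12885 genes were denser.

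The homeodomain genes stood between these extremes. Onecut1, also known as HNF6, acts in the embryonic bile ducts and keeps hepatocyte genes on in the adult. It lies on chromosome 9 from 74861921 to 74889648 and held 162, 65 and 137 ends. The densities were 9.74 (8.14 to 11.6), 1.29 (0.988 to 1.65) and 4.66 (3.87 to 5.56), so that experiment 2 alone included the nuclear mean. Prox1, which lets hepatoblasts migrate out of the gut wall and holds back the activity of HNF4A and NR5A2, lies on chromosome 1 from 190118035 to 190170827. It held 102, 123 and 128 ends, for densities of 4.02 (3.20 to 4.98), 1.60 (1.31 to 1.93) and 2.86 (2.36 to 3.43).

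Ordered by density, neighbouring genes mostly overlapped in their intervals. In experiment 1 the order was Cebpa, Foxa2, Cebpb, Foxa3, Hnf4a, Onecut1, Foxa1, Prox1 and Nr5a2. The intervals of neighbours were apart there only between Cebpb and Foxa3, Foxa1 and Prox1, and Prox1 and Nr5a2. In experiments 2 and 3 no neighbours were apart. Cebpa, Cebpb, Foxa2 and Foxa3 took the top 4 places in each experiment and Nr5a2 the last. These places belong to windows with 10 kb on either side and changed over the gene alone. In experiment 1 Cebpb was then above Foxa2 (98.3 and 47.0), Foxa1 above Foxa3 (19.4 and 16.8) and Nr5a2 above Prox1 (2.24 and 1.90).

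The 9 genes were also higher in experiments 1 and 3 than in experiment 2. A ratio between experiments was called when it was at least 1.5 with a lower limit above 1, and 25.9% of all genes were called for experiment 1 over 2 and 23.6% for experiment 3 over 2. All 9 genes were called in both. The median ratio was 3.81 for experiment 1 and 1.75 for experiment 3. Over all genes these medians were 1.16 and 1.23, and over the genes called in all 3 experiments they were 3.71 and 1.63, close to the values of this set. Onecut1 had the highest ratios, 7.56 (5.54 to 10.4) and 3.62 (2.65 to 4.99), followed by Hnf4a with 6.09 (4.89 to 7.60) and 2.43 (1.93 to 3.06). The lowest were 1.94 (1.46 to 2.55) for Nr5a2 in experiment 1 and 1.52 (1.11 to 2.09) for Cebpb in experiment 3. Crosslinking and experiment cannot be told apart.

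The linker sequence moved with these ratios. In experiment 2 the 329515 PETs with the ATGT linker gave Cebpa a density of 11.9 (8.83 to 15.6), and the 1109337 with TAAG gave it 4.93 (3.87 to 6.20). Cebpb had 9.02 (6.38 to 12.4) and 3.36 (2.46 to 4.49), Foxa2 had 5.83 (3.90 to 8.37) and 2.85 (2.10 to 3.79), and Foxa3 had 5.73 (3.99 to 7.97) and 2.19 (1.63 to 2.89). The intervals of both linkers were apart for these 4 genes and overlapped for the other 5. In experiment 3 they overlapped for all 9. In experiment 1 they were apart for Cebpb alone, at 11.4 (7.44 to 16.7) with ATGT and 22.1 (17.3 to 27.9) with TAAG. Within the ATGT linker the ratio of experiment 3 to experiment 2 was 0.877 (0.592 to 1.30) for Cebpa, 0.914 (0.582 to 1.44) for Cebpb and 0.964 (0.599 to 1.56) for Foxa3. The median over the 9 genes was then 1.07, beside 1.17 over all genes, and 4 genes kept a lower limit above 1. These were Hnf4a, Onecut1, Prox1 and Nr5a2. Within TAAG all 9 had a lower limit above 1, with a median of 2.09, beside 1.24 over all genes. For experiment 1 over 2 the medians were 2.14 with ATGT and 6.05 with TAAG, beside 1.13 and 1.15 over all genes. There 7 and 9 genes had lower limits above 1. The share of all genes with such a limit within a linker was not counted. No source used here says which libraries carried which linker.

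The rest of the liver network was then examined with the same measure. Genes of each list are named here by their percentile among all protein-coding genes, averaged over the 3 experiments, so that another gene can be higher or lower in a single experiment. Of 24 other liver regulators 6 were called in all 3 experiments, and their median densities were 4.74, 1.47 and 2.75. The highest was Nr1i3, the receptor CAR of drug metabolism, with 24.4, 4.90 and 7.24, but its window shared 17.3 kb with that of the apolipoprotein gene Apoa2. Next were Hhex, a homeobox gene of the liver bud, with 16.3, 3.40 and 5.77, and Xbp1, a factor of the secretory pathway, with 16.7, 2.61 and 6.21. Among the lowest were Hnf4g, the paralog of Hnf4a used in gut, with 0.868, 1.05 and 0.879, and Gata4 with 1.67, 0.968 and 2.54. Hnf4a and Hnf4g thus had intervals far apart in experiment 1, at 8.89 to 11.6 and 0.645 to 1.14.

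Of 10 relatives of the 9 genes that are known from other tissues, 0 were called in any experiment. Their medians were 1.13, 1.23 and 1.45, near those of all genes. The highest by mean percentile were Foxl2, an ovary gene, with 1.66, 1.60 and 1.51, Foxd3 of the neural crest with 1.41, 1.31 and 1.89, and Foxb1 with 1.23, 1.47 and 1.26. The lowest by mean percentile were Cebpe of granulocytes with 0.658, 1.04 and 1.64, Onecut3 with 1.02, 0.916 and 1.38, and Foxe1 of the thyroid with 0.648, 1.15 and 0.881. The highest relative in experiment 1 was therefore below Nr5a2, the lowest of the 9 genes, although the interval of Foxl2 (0.856 to 2.89) overlapped that of Nr5a2. Of 18 regulators of other lineages 0 were called in all 3 experiments, with medians of 1.04, 1.25 and 1.28. Sox10, Tal1 and Olig2 were highest by mean percentile, and 1 gene of the list was called in experiment 1, Sox10 at 2.23 (1.38 to 3.41), and 1 in experiment 3, Olig2 at 2.04 (1.29 to 3.06). Pdx1 of the pancreas, Tbx21 of T cells and Gata1 of red cells were lowest by mean percentile, with 0.668, 0.769 and 0.460 in experiment 1.

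Liver genes known to be bound by factors of this set had higher medians than the factor genes. Of 12 such targets 9 were called in all 3 experiments, with medians of 28.0, 3.96 and 6.16. Alb for albumin had 61.3, 5.69 and 9.73, Apoa1 had 38.1, 7.28 and 9.22, and Apoc3, whose window shares 17.4 kb with that of Apoa1, had 36.8, 7.20 and 8.92. Cebpa stood within this range in experiment 2 at 6.52 and above Alb in experiment 3 at 10.5, where the intervals of 8.79 to 12.6 and 8.38 to 11.2 overlapped. The 3 targets not called throughout were the lowest. They were Cps1 of the urea cycle with 10.7, 1.66 and 4.05, Cyp7a1, the rate-limiting enzyme of bile acid synthesis, with 5.83, 1.35 and 2.22, and Serpina1a with 2.55, 0.187 and 0.536. Serpina1a belongs to a family of near-identical copies, between which short tags may not be placed. Whether this bears on its values was not tested.

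**Figure D2:**
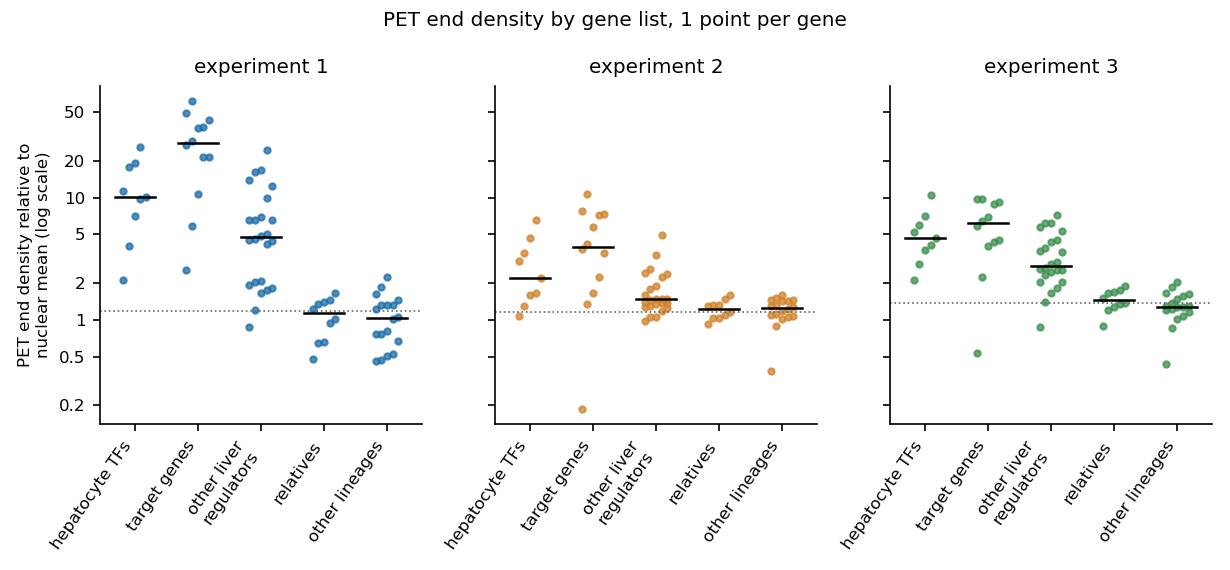
Density of PET ends relative to the nuclear mean (log axis) for the 9 hepatocyte transcription factor genes and 4 other gene lists in each experiment; points are genes, bars are list medians and the dotted line is the median of all protein-coding genes. The 9 genes have medians of 10.2, 2.21 and 4.66, whereas relatives known from other tissues (1.13, 1.23 and 1.45) and regulators of other lineages (1.04, 1.25 and 1.28) lie around the dotted line.

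Within the windows, ends gathered at gene starts. Taking the densest annotated start of each gene and 2.5 kb on either side, the median density over the 9 genes was 32.1, 5.86 and 9.09 in experiments 1, 2 and 3, beside 1.72, 1.32 and 1.95 over 17491 genes. When the first start of each gene was moved by 50, 100 or 200 kb in either direction, the ends near these 9 places, summed, fell from 499, 319 and 282 to between 15 and 35, 41 and 61, and 32 and 68. The positions of the table and of the annotation thus lie on one coordinate system at these genes.

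Cebpa had the densest start of the 9. Within 2.5 kb of it lay 137, 92 and 73 ends, or 66.5%, 59.0% and 49.7% of its window, for densities of 78.6 (64.3 to 95.1), 17.4 (13.7 to 21.8) and 23.7 (18.3 to 30.3). Its promoter is the one printed above with a TATAAA word at -30. Ends also lay 2 to 4 kb past the start, around and beyond the end of this short gene, with a density of 71.7 in the bin from 3 kb of experiment 1. The start of Cebpb held 91, 67 and 55 ends, for densities of 52.2 (40.8 to 65.8), 12.7 (9.52 to 16.5) and 17.9 (13.3 to 23.5). Its own stretch of denser bins past the gene overlapped the long noncoding RNA gene A530013C23Rik, whose start lies 1844 bp from that of Cebpb. Ends carry no strand here and cannot be divided between the 2 genes.

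Foxa3 held 62, 50 and 38 ends around its start, with densities of 35.6 (25.9 to 47.6), 9.46 (6.79 to 12.8) and 12.3 (8.27 to 17.7). The start of Sympk, a gene of RNA 3′ end processing that is read in the opposite direction, lies 838 bp away, so most of these ends fall near both starts. The densest 1000 bp of the Foxa3 window, with 40, 35 and 17 ends, was centred 277 bp inside Foxa3. Foxa1 had 43, 20 and 23 ends around its start, with densities of 24.7 (17.2 to 34.3), 3.78 (2.16 to 6.14) and 7.47 (4.50 to 11.7). In experiment 1 its densest 1000 bp held 30 of 68 ends, in experiment 3 it held 16 of 63, and both were within 450 bp of the start. In experiment 2 the densest stretch held only 8 ends. A stretch 7.12 kb downstream and another centred 305 bp past the start both held this many, so no single stretch stood out there. The span of Ttc6, read in the opposite direction, begins at 57546704, within 2.5 kb of the Foxa1 start. Ends near both places cannot be divided between these genes. Onecut1 had 40, 15 and 28 ends around its start, with densities of 22.9 (15.6 to 32.6), 2.84 (1.55 to 4.76) and 9.09 (5.89 to 13.4). The rest of the Onecut1 gene stayed dense in experiments 1 and 3, at 7.96 and 5.22, and was at 1.09 in experiment 2. The start of the antisense noncoding gene Gm33562 lies 1215 bp inside Onecut1 and shares these ends.

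**Figure D3:**
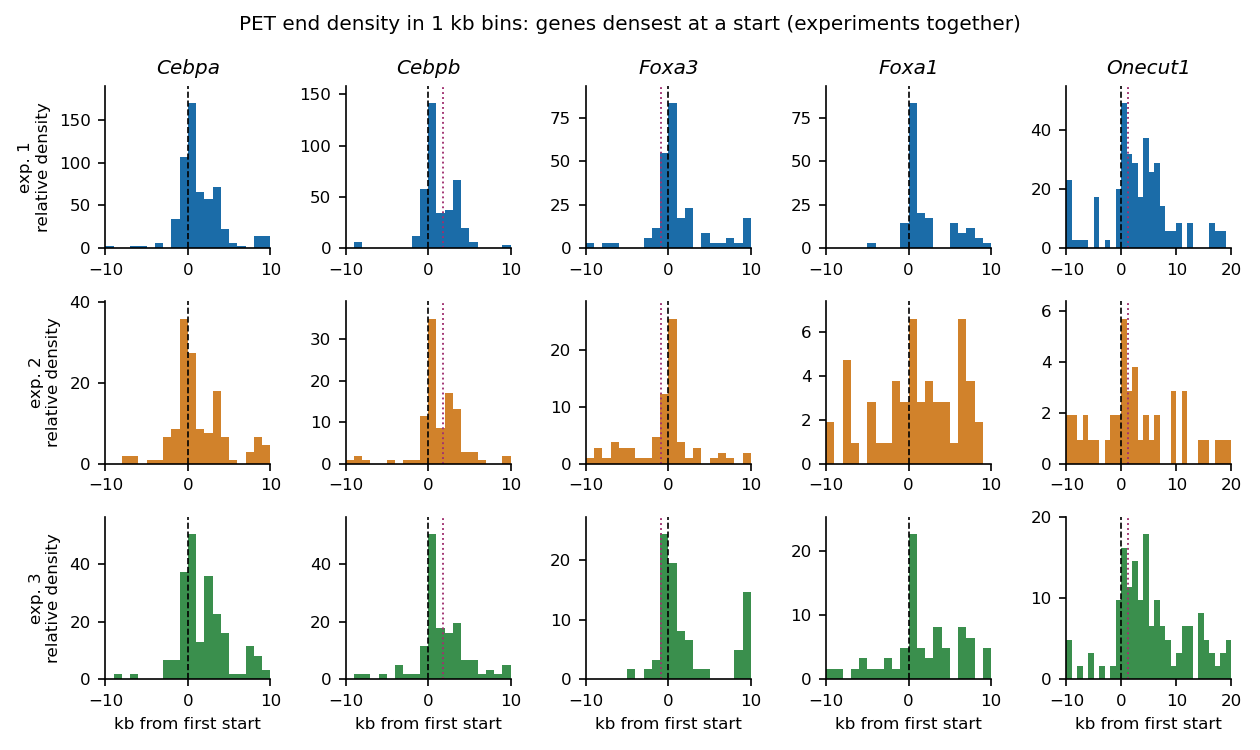
Density of PET ends relative to the nuclear mean in 1 kb bins against the distance from the first annotated start, in the direction of the gene, for 5 genes (columns) and 3 experiments (rows, each with its own scale from 0). Dashed lines are starts of the gene and dotted lines starts of neighbouring genes; a densest bin touches the start except for Onecut1 in experiment 3, with a tie for Foxa1 in experiment 2, and Foxa3 shares its peak with Sympk 838 bp away.

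The 2 annotated starts of Hnf4a, 40298 bp apart, differed. The first belongs to the promoter known as P2, used in the embryo and pancreas, and the second to P1, used in adult liver. Within 2.5 kb of the first lay 26, 4 and 9 ends, for densities of 14.9 (9.11 to 23.0), 0.757 (0.206 to 1.94) and 2.92 (1.26 to 5.76). Within 2.5 kb of the second lay 56, 27 and 21 ends, for densities of 32.1 (23.2 to 43.4), 5.11 (3.03 to 8.07) and 6.82 (4.11 to 10.7). The second start was thus higher in all 3 experiments. Of the PETs at either start, the second held 67.7% (54.7 to 79.1%, exact Clopper-Pearson), 81.8% (59.7 to 94.8%) and 70.4% (49.8 to 86.2%). The lower limit passed an even split in experiments 1 and 2 and fell just short of it in experiment 3. The densest 1000 bp of the whole window, with 34, 18 and 13 ends, was centred 190 bp past the second start.

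A further dense stretch of Hnf4a lay before the second start. The antisense noncoding gene Hnf4aos begins 5434 bp upstream of it, and within 1 kb of that beginning lay 29, 17 and 7 ends, for densities of 41.6, 8.04 and 5.68. Between the first start and this stretch, 7.29 kb of the gene (163518557 to 163525841) held 0 ends in all 3 experiments, the longest such gap in any of the 9 windows. The next longest was 2.31 kb, in Nr5a2. Whether tags can be placed in this gap was not tested.

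Foxa2 had a dense stretch outside the gene. From 148038823 to 148040823, a stretch centred 5.64 kb past its most downstream start and beyond its end, there were 59, 20 and 28 ends. The densities were 84.6 (61.5 to 114), 9.45 (5.40 to 15.4) and 22.7 (14.7 to 33.6). The 3 starts of Foxa2 itself lie within 1505 bp of each other, and the middle one had 71, 35 and 27 ends within 2.5 kb and densities of 40.7, 6.62 and 8.77. At the same width, 1 kb on either side, the middle start held 59, 33 and 15 ends, with densities of 84.6, 15.6 and 12.2. The outer stretch thus equalled the start in experiment 1, was below it in experiment 2 and above it in experiment 3, where the intervals (14.7 to 33.6 and 6.81 to 20.1) overlapped. It covers the start of the long noncoding RNA gene 9030622O22Rik, which lies 4951 bp from the nearest start of Foxa2. In experiment 1 it drew 46 of its 59 ends from the TAAG linker and 13 from ATGT.

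Prox1 and Nr5a2 were each densest away from their starts when ends of the 3 experiments were summed. At Prox1 a stretch centred 4.36 kb upstream of the first start, inside the noncoding gene Prox1os, held 19, 3 and 21 ends, for densities of 27.2 (15.2 to 44.9), 1.42 (0.292 to 4.14) and 17.0 (10.1 to 26.9). Its first start had 24, 31 and 23 ends within 2.5 kb, with densities of 13.8, 5.86 and 7.47. In experiment 2 the order was reversed, with the start dense and the upstream stretch near the nuclear mean. At Nr5a2 the starts, 6818 bp apart, had few ends, with 9, 5 and 8 at the first and 7, 3 and 10 at the second. A stretch 4.29 kb inside the second start held 18, 4 and 9 ends, for densities of 25.8 (13.3 to 45.1), 1.89 (0.390 to 5.53) and 7.31 (3.34 to 13.9). The places of these stretches were chosen from the same counts, so their densities are a description.

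**Figure D4:**
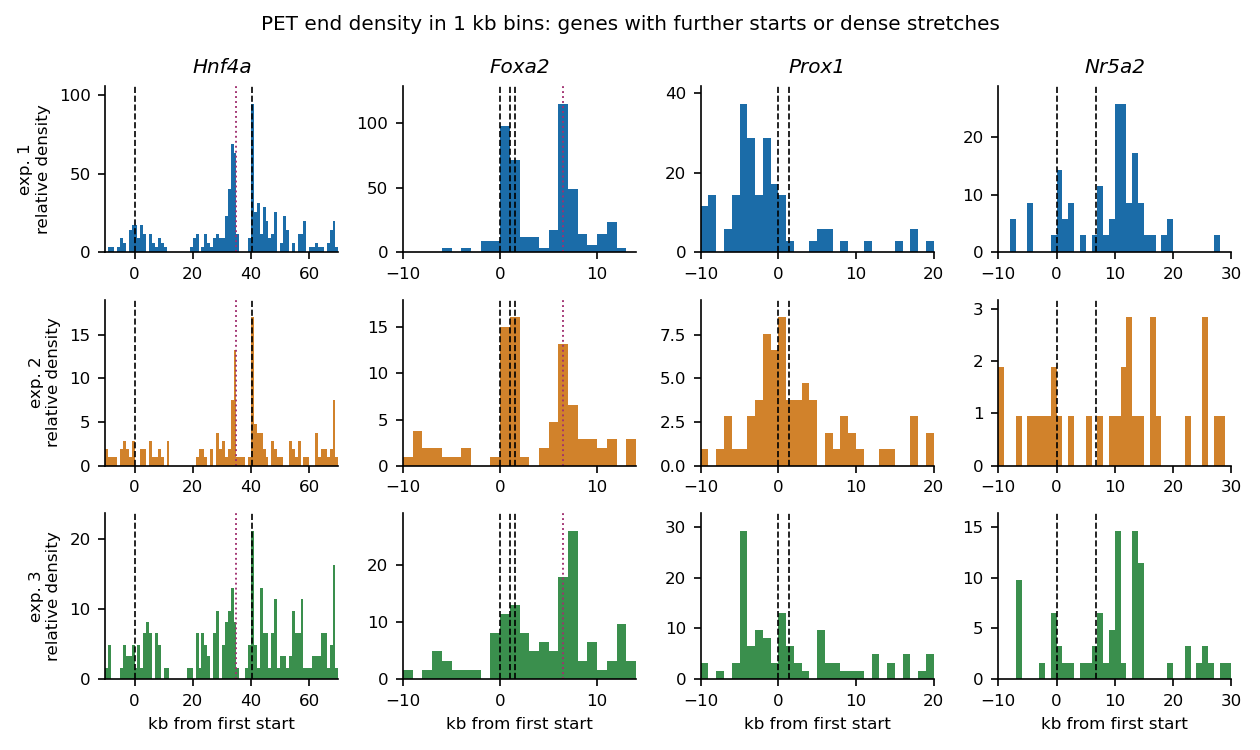
Density of PET ends relative to the nuclear mean in 1 kb bins against the distance from the first annotated start, in the direction of the gene, for 4 genes (columns) and 3 experiments (rows, each with its own scale from 0). Dashed lines are starts of the gene and dotted lines starts of Hnf4aos and 9030622O22Rik; the second Hnf4a start, 40298 bp in, is denser than the first, Foxa2 has a second peak past the gene, and in experiments 1 and 3 Prox1 has one before its start and Nr5a2 has one inside the gene.

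PETs with both ends close together made up a larger share at these genes than over all genes. In experiments 1, 2 and 3, 29.8% (27.0 to 32.7%), 14.9% (12.6 to 17.4%) and 13.8% (11.7 to 16.1%) of the PETs touching the 9 genes had ends at most 8 kb apart. Pooled over all protein-coding genes the shares were 17.1%, 4.24% and 9.29%. The share of each of the 9 genes was above them in each experiment, but not every interval was. The intervals included the pooled share for Foxa1, Prox1 and Nr5a2 in experiment 1, and for Onecut1 and Nr5a2 in experiment 2. In experiment 3 only those of Foxa1, Foxa3 and Cebpa lay above it. Foxa2 had the highest share in experiment 1 at 41.6% (32.4 to 51.2%), and Cebpb in experiment 2 at 26.2% (17.2 to 36.9%). With only the PETs joining different chromosomes, Cebpa still had 18.2, 4.24 and 9.12 and Hnf4a 6.52, 1.25 and 3.53. Foxa1 then lost its call in experiment 2 (1.71), and Nr5a2 in experiments 1 and 3 (1.71 and 1.85).

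PETs joining a gene to a place 8 kb to 1 Mb away were few. Over the 3 experiments together 13 had 1 end in a window of the 9 genes and the other outside it, and 5 of the genes had at least 1, as did 27.8% of all protein-coding genes. Experiments 1, 2 and 3 gave 5, 1 and 7 of them. Per 1000 ends the 9 genes had 3.70 (1.97 to 6.32), beside 2.27 over all genes and 5.03 over the genes called in all 3 experiments, of which 69.2% had at least 1. Foxa2 had 4, Cebpa 3, Cebpb 3, Prox1 2 and Hnf4a 1. Foxa1, Foxa3, Onecut1 and Nr5a2 had 0, with 195 to 439 ends each.

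At Cebpa, 2 PETs of experiment 3 ran from the downstream flank of the gene, 7915 and 11017 bp past the start, to places only 528 bp apart at 35167776 and 35168304. These lie 18319 and 17791 bp from Slc7a10, an amino acid transporter gene and the nearest protein-coding gene. The 5 kb around the first of these places had densities of 1.72, 2.08 and 4.22. The other Cebpa PET, of experiment 1, ran from 374 bp before the start to a place within Pepd, the neighbouring gene for a dipeptidase, 86.5 kb away. At Foxa2, 2 PETs of experiment 1 ran from within 211 bp of a start to places 14.6 and 18.1 kb downstream, both inside 9030622O22Rik. The 5 kb around each far end had a density of 8.60 in experiment 1. The densities there were 1.89 and 0.946 in experiment 2, and 4.22 and 1.95 in experiment 3. The other 2, of experiment 3, spanned 142 and 519 kb, the latter from the dense stretch at 9030622O22Rik. At Cebpb the only PET of experiment 2 spanned 16.6 kb from 43 bp inside the gene. The others spanned 198 kb in experiment 1 and 389 kb in experiment 3. The latter ran from 5288 bp past the Cebpb start, beyond that gene and inside A530013C23Rik, to Pard6b, a cell polarity gene. Prox1 had PETs of 27.0 and 132 kb in experiment 3, and Hnf4a had 1 of 36.2 kb in experiment 1. No other far places of one gene were closer to each other than 3925 bp, at Foxa2.

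A further 9 PETs over 8 kb had both ends inside a window, and 6 of these were in Hnf4a. They spanned 9.29 to 36.1 kb, 5 of them in experiment 3 and 1 in experiment 1. In 3 of the 6, an end lay 6885, 7136 or 7927 bp before the second start, inside Hnf4aos and within 2.5 kb of its start, and the other end lay 2409, 10913 or 28203 bp past the second start. Of the other 3, 2 also had an end on either side of the second start and 1 began 584 bp past it. In none did an end fall within 10 kb of the first start. Nr5a2 had 2, of 13.1 and 71.3 kb, and Cebpb had 1, of 10.3 kb.

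**Figure D5:**
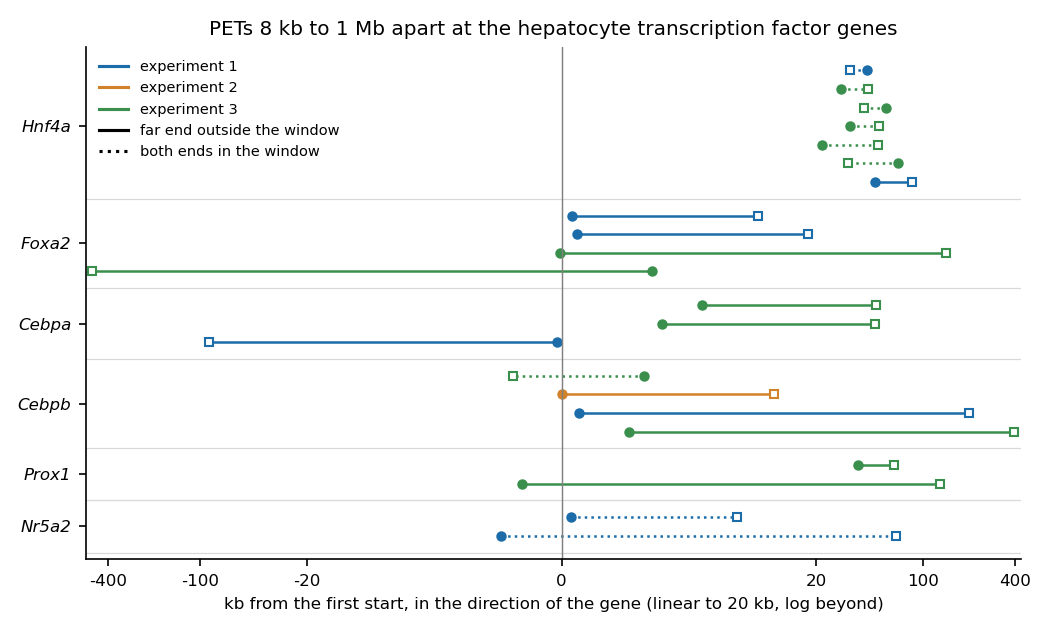
Each line is 1 PET with ends 8 kb to 1 Mb apart at the 6 genes that had any, drawn by the distance of its ends from the first annotated start in the direction of the gene (linear to 20 kb, logarithmic beyond); filled circles are the end in the window, open squares the other end, and dotted lines PETs with both ends in the window. Hnf4a has 6 dotted PETs between 20 and 100 kb past its first start, and 2 green Cebpa PETs end at nearly one place.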

How the data were processed

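Pol II ChIA-PET of mouse liver was analysed from 1 table with a row for each PET and no header. Per the submitters' processing notes, Bowtie2 and the build mm10 were used; the version and filters were not stated in the sources used here. The deposited values are positions of the authors' mapped tags, with no count, library or time point. Per the labels, the submitters made 8 libraries, but samples could not be matched to rows, so experiments were kept as pools. PETs with a mitochondrial end were set aside.

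Ends were counted over RefSeq GRCm38.p6 gene spans with 10 kb on either side, with Python 3.11.15, pandas 2.3.3, numpy 2.4.6 and scipy 1.17.1. Relative density is ends per kb over the nuclear mean, which takes the highest position of each chromosome as its length. Intervals are exact Poisson intervals from the number of PETs, exact conditional binomial intervals for ratios and Clopper-Pearson intervals for shares. Starts came from RefSeq promoter windows. The counting was tested on simulated data. No p-values were computed, since each experiment is 1 pool. The genes and lists were chosen with earlier results of these data known. The rule for naming took all 9 genes, genes overlapping their windows or far ends, and at most the 3 highest and 3 lowest of each other list; markers were counted, with the highest named after its values were seen. Alternatives changed the window, the PETs counted, the fold, the scale and the distance range. Counting each position once and each linker by itself were added after the values were seen.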

Additional observations from a re-analysis of the deposited data

How the results depend on the processing

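No paired analysis was possible because the rows of the table carry no library or replicate number, and leaving out single libraries was not run for the same reason. Over 351 alternative values, 252 stayed within the counting interval or within 1.5 times the reported count, and 99 moved. Only the median ratios to experiment 2 could reverse, by falling below 1, and 0 did. Ratios of single genes were not among these values. Within ATGT those of Cebpa, Cebpb and Foxa3 for experiment 3 over 2 were below 1. The cause of the moves was not tested. The median density of the 9 genes in experiments 1, 2 and 3 was 13.6, 3.28 and 5.76 with a flank of 2.5 kb and 16.8, 3.58 and 5.98 over the gene alone. In experiment 1 it was 7.73 with PETs between chromosomes only, 7.81 with PETs counted in place of ends, and 8.60 relative to the median gene window, where experiment 3 had 3.41. In experiment 2 it was 3.62 with the ATGT linker only. The median ratio to experiment 2 was 2.14 (experiment 1) and 1.07 (experiment 3) with ATGT, and 6.05 for experiment 1 with TAAG. The median at the densest start was 54.5, 10.4 and 13.8 within 1 kb, and 20.4 in experiment 1 within 5 kb. Contacts numbered 8 up to 100 kb, 8 for the gene alone, and 6 to 12 with an experiment left out, with 8 without experiment 1 and 6 without experiment 3. Foxa1 lost its call in experiment 2 with PETs between chromosomes only (1.71), PETs counted (1.90), the median gene window (1.91), the TAAG linker (1.79) and a fold of 3 (2.21). Nr5a2 lost its calls in experiments 1 and 3 with PETs counted (1.73 and 1.88), the median gene window (1.78 and 1.55) and a fold of 3, and in experiment 3 with ATGT (1.98). Collapsing near-duplicate PETs or counting each position once moved none of the 27 densities. Prox1 lost its call in experiment 1 over the gene alone (1.90) and in experiment 3 with a fold of 3 (2.86). Hnf4a gained a call in experiment 2 with ATGT (2.25), and Hnf4a and Prox1 gained one there with a fold of 1.5. Depth limits values within genes: the densest 1000 bp of Onecut1 held 22, 6 and 12 ends.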

Other observations

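PETs that joined a pair of the 9 genes were counted after the other values were seen. There were 3, all of experiment 3, and they linked Cebpa with Nr5a2, Foxa2 with Prox1, and Cebpb with Hnf4a. The last pair lies on chromosome 2, over 1 Mb apart, and the others on different chromosomes. Each was a single PET. Of all nuclear PETs, 73.1%, 88.7% and 80.2% in experiments 1, 2 and 3 joined different chromosomes. How many such pairs random joining would give was not tested, so these PETs are listed only.

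Ends were also counted at the starts of genes that border the 9 genes. Within 1 kb of the start of 9030622O22Rik, next to Foxa2, lay 54, 21 and 20 ends in experiments 1, 2 and 3, for relative densities of 77.4, 9.93 and 16.2. At A530013C23Rik, next to Cebpb, there were 25, 25 and 21 ends (35.8, 11.8 and 17.0), and at Gm33562, inside Onecut1, 27, 8 and 18 (38.7, 3.78 and 14.6). The starts of A530013C23Rik and Gm33562 lie 1844 and 1215 bp from those of Cebpb and Onecut1, so their zones overlap the start zones of those genes. Gm51475, 11558 bp from the start of Cebpa, held 0, 2 and 10 ends (0, 0.945 and 8.12), so its ends came mostly from experiment 3. It lies in the flank from which a Cebpa PET of that experiment began. By contrast the start of R3hdml, a protein-coding neighbour of Hnf4a, held 0, 1 and 1 ends, and that of Ttc6, which overlaps the window of Foxa1, held 0, 8 and 1. The Ttc6 start counted lies 18004 bp from that of Foxa1, whereas the span of Ttc6 begins nearer, at 57546704 inside Foxa1. Irf2bp1, at the far end of the Foxa3 window, held 5, 7 and 8 (7.17, 3.31 and 6.49).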
